A study of Mus musculus with 4 samples.

Results

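The comparison was between 2 single-cell RNA libraries of LSK cells, sorted from bone marrow as Lin-Sca-1+Kit+, a gate known to contain stem cells and the first progenitors: the double mutant and its Ikk2CA background. Ikk2CA mice carried Vav1-iCre/+ together with Ikk2-CA flox/+, a constitutively active form of the kinase Ikk2. Double-mutant mice carried both of these and, in addition, Jak2 V617F flox/+, the activated kinase of myeloproliferative neoplasms. By the labels, the 2 genotypes differed in the Jak2 allele alone. Both were bred with Vav1-iCre, whose promoter is active across the blood lineage, so recombination was not limited to the sorted gate. An NF-κB-responsive EGFP reporter was part of the cross, and the labels do not say which animals carried it. Each library was 1 pool of bone marrow from 5 mice aged 8 to 12 weeks, enriched for Kit with beads and then sorted. The other background consisted of a control library (Vav1-iCre/+) and a Jak2V617F library (the same with the Jak2 allele), again 1 pool of 5 mice each.

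Barcodes with 500 to 7500 detected genes and under 10% mitochondrial transcripts were kept, which left 9865 Ikk2CA and 5268 double-mutant cells, 15133 of the 37344 cells kept in the series. Unique molecular identifiers (UMIs, counted transcript molecules) were summed per gene over the kept cells and scaled by each library's total to CPM, a level not corrected for gene length. Of 32285 genes, 7752 reached 10 CPM in one or both libraries and were compared. At that limit, Poli (10.01 and 8.494 CPM in Ikk2CA and the double mutant) was inside and Zfp942 (9.771 and 9.999 CPM) was outside. With 1 library per genotype there was no replicate spread, so no test was possible and no p-value is given. Ratios describe these 2 pools, and the 95% intervals cover counting error only.

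Ikk2 phosphorylates the inhibitors that hold NF-κB in the cytoplasm and so releases this family of transcription factors, which activate cytokine, chemokine and survival genes and also their own inhibitors. Jak2 is the kinase bound to the receptors for erythropoietin and related cytokines. It activates STAT5 and the RAS-ERK cascade, and STAT5 in turn induces feedback inhibitors of the SOCS family. In LSK cells both routes are known to affect the balance between dormant stem cells and the first steps towards lymphoid, myeloid, erythroid and megakaryocyte fates.

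The libraries behind the comparison held 197836491 UMIs (Ikk2CA) and 142211877 UMIs (double mutant), with medians of 17726 and 24915 UMIs and 3895 and 4668 genes per cell. Because the double-mutant cells were deeper, shares of cells with a transcript were compared after thinning every cell to 5000 UMIs, which left out 405 Ikk2CA and 146 double-mutant cells. Median mitochondrial shares were 3.45% and 3.69%. The share without a UMI of Xist, the female-specific transcript, was taken before thinning among cells of at least 5000 UMIs, so it is not matched for depth. It was 75.7% of Ikk2CA and 70.9% of double-mutant cells, against 41.5% of control and 99.6% of Jak2V617F cells. The 2 libraries shared 15 cell barcodes. The genes of the sort were present in both, with Ly6a, which encodes Sca-1, at 233 and 191 CPM and Kit at 87.6 and 93.5 CPM. The altered genes themselves do not distinguish mutant from normal transcripts in these counts. Jak2 was at 15.7 CPM in Ikk2CA and 11.6 CPM in the double mutant, and Ikbkb, which encodes Ikk2, was at 53.9 and 51.5 CPM.

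The largest difference between the pools was in cells that carried lineage markers. Cells with at least 3 of a class's markers after thinning are called marked here, and the rule is a cut on a marker count, not a cell type. Stem-marked cells, in addition, had to carry under 3 markers of every other class. Of the 9460 Ikk2CA cells at this depth, 1488 were B-marked (15.7%, 95% exact binomial interval 15.0 to 16.5%), against 52 of 5122 double-mutant cells (1.01%, 0.759 to 1.33%). Control had 2.20% and Jak2V617F 0.563% B-marked cells. Plasma-marked cells made up 2.09% of Ikk2CA and 0.0195% (1 cell) of the double mutant, and plasmacytoid-dendritic-marked cells 3.57% and 0.117%. Erythroid-marked cells made up 1.84% and 0.332%, and T- or NK-marked cells 0.55% and 0.039%. Granulocyte-monocyte-marked cells were 14.3% and 9.72%, or 32.9% and 30.4% when 2 markers sufficed. Megakaryocyte-marked cells were at nearly equal shares, 5.09% and 5.19%, but at 11.8% and 14.9% when 2 markers sufficed. Stem-marked cells made up 4.30% (3.90 to 4.73%) of Ikk2CA and 7.81% (7.09 to 8.58%) of the double mutant, against 16.2% of control and 16.8% of Jak2V617F.

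Many cells lay near these limits. In Ikk2CA 331 cells had 2 and 130 had 3 B markers, and in the double mutant 30 and 1. For stem markers 776 and 304 Ikk2CA cells, and 731 and 298 double-mutant cells, had 2 and 3, cells marked for another class included. B-marked cells carried a median of 1 plasma and 1 plasmacytoid dendritic marker in both libraries. Plasma-marked Ikk2CA cells carried a median of 3 B markers, so these classes overlapped. Cells with under 3 markers of every class except stem are called marker-low. They made up 58.4% of Ikk2CA (5527 cells) and 83.3% of the double mutant (4264 cells), and ratios of lineage lists are also given within them. Doublets were not called, and 220 Ikk2CA and 8 double-mutant cells carried the markers of at least 2 classes.

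Across all kept cells, 27 genes were at least 2-fold higher in the double mutant (0.348% of the 7752 compared) and 160 were at least 2-fold lower (2.06%). The ratios were otherwise narrow, with quartiles of −0.12 and 0.15 on the log2 scale and a median of 0.02. In marker-low cells 49.5% of genes had a ratio above 1 and 50.5% below, and 13 genes were at least 2-fold higher (0.167%) and 109 at least 2-fold lower (1.4%), out of 7784 compared. Of the 160 lower genes, 110 reached 10 CPM in marker-low cells, where 109 had a ratio below 1 and 90 were still at least 2-fold lower. Of the 27 higher genes, 24 were compared there, all 24 had a ratio above 1, and 10 were at least 2-fold higher. Among genes compared in both sets of cells, most differences in both directions thus had the same sign outside the marked cells. Marker-low cells are part of the kept cells, so the 2 ratios are not independent. Of the lower genes, 50 were not compared there.

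**Figure D1:**
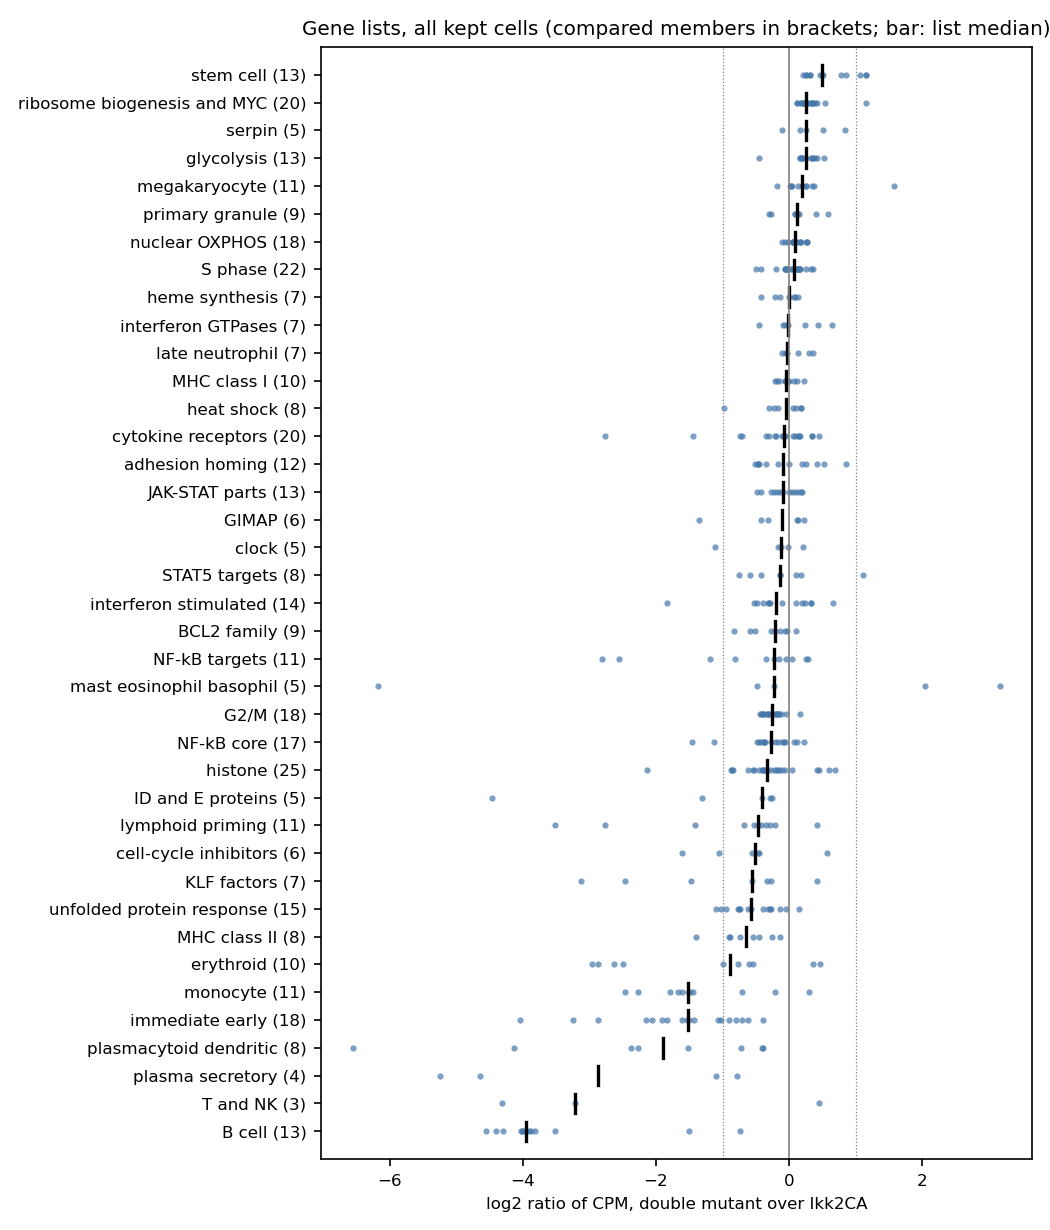
Log2 ratio of CPM, double mutant over Ikk2CA, for the compared members of 39 gene lists over all kept cells. Each point is a gene, each bar the list median, and dotted lines mark 2-fold; B cell genes have the lowest median (−3.96), all 18 immediate early genes are below 0 (median −1.52) and all 13 stem cell genes above 0 (median 0.50).

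Immediate early genes, which encode transcription factors and feedback regulators switched on within minutes by growth factors, cytokines, stress and cell handling, were lower in the double mutant as a group. All 18 members that passed 10 CPM had a ratio below 1, against 45.3% of all genes compared, and 13 of 18 were at least 2-fold lower, against the 2.06% given above. Their median log2 ratio was −1.52, beside 0.02 over all genes. The remaining 7 of the 25 listed members stayed under 10 CPM in both libraries.

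In these bulk sums, fewer cells with a transcript and less of it per cell cannot be told apart, so shares of cells are given too. Fos, the partner of Jun in the AP-1 factor (mm10 chr12:85473890-85477273), was at 55.7 CPM in control, 411 in Ikk2CA, 176 in Jak2V617F and 56.4 in the double mutant. The double mutant and control were thus close, and Ikk2CA stood above the other 3 libraries. The ratio was 0.137 (0.134 to 0.141). After thinning, 62.5% of Ikk2CA cells and 21.1% of double-mutant cells had a Fos UMI. Fosb, its close relative, was at 23.6, 112, 90.8 and 26.8 CPM in the same order. Egr1, a zinc-finger factor downstream of ERK, was at 20.5, 77.9, 62.1 and 17.5 CPM. For both genes the single mutants were high, and control and the double mutant were low.

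Nr4a1, an orphan nuclear receptor that restrains stem cell cycling (mm10 chr15:101254269-101274795), had the lowest ratio of the list. It was at 2.28 CPM in control, 25.9 in Ikk2CA, 11.6 in Jak2V617F and 1.58 in the double mutant. The level in the double mutant was 16.5-fold lower than in Ikk2CA (ratio 0.0607, 0.0529 to 0.0694), and 12.6% against 0.976% of thinned cells had a UMI. Its relative Nr4a2 was at 2.79, 22.6, 8.08 and 2.39 CPM. Jun (469 against 154 CPM), Junb (243 against 85.6), Jund (319 against 110.0) and the phosphatase Dusp1 (109 against 28.9), which switches off MAP kinases, had log2 ratios of −1.60, −1.50, −1.54 and −1.91. The smallest difference was in Gadd45b, a stress-response gene at 16.3 against 12.4 CPM.

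These differences were as large outside the marked cells. In marker-low cells the 19 compared members were again all lower (median log2 −1.54), with Fos at 525 against 62.5 CPM and Nr4a1 at 39.2 against 1.75 CPM. Within stem-marked cells all 21 compared members were lower (median −1.52), Fos being at 966 against 109 CPM and Nr4a1 at 95.6 against 3.49 CPM. Within granulocyte-monocyte-marked cells 14 of 15 were lower (−1.19), within megakaryocyte-marked cells 17 of 17 (−1.84) and within B-marked cells 17 of 17 (−1.31). The Fos log2 ratio was −3.15, −3.18, −3.39 and −2.64 in these 4 classes. The B-marked value for Nr4a1 rests on 5 double-mutant UMIs.

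**Figure D2:**
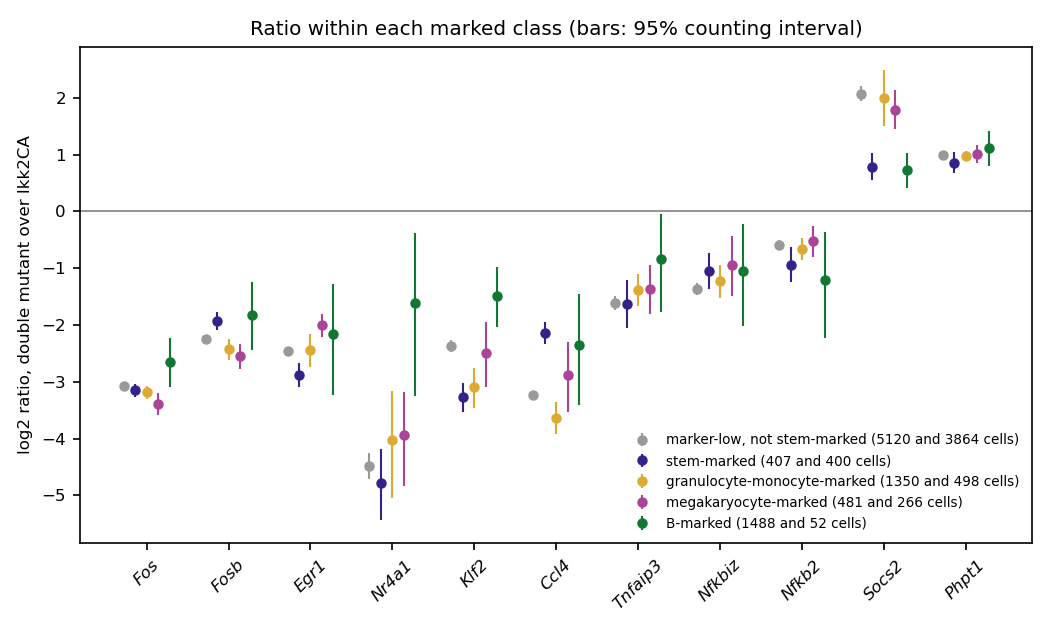
Log2 ratio, double mutant over Ikk2CA, of 11 genes within each marked class; bars are 95% counting intervals and the legend gives cells in Ikk2CA and the double mutant. The immediate early genes, Klf2, Ccl4 and the NF-κB genes lie below 0 in all 5 classes, and Socs2 and Phpt1 lie above 0 in all 5.

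Upstream sequences of 3 immediate early genes with low ratios and of the NF-κB feedback gene Tnfaip3 are shown because these genes are the textbook targets of the cAMP-response-element and NF-κB routes. Each is the 250 bases before a RefSeq start site (GRCm38.p6), 5′ to 3′ on the gene's strand. Capitals mark the half-site TGACG, on either strand, in the first 3, and matches to the NF-κB consensus, on either strand, in Tnfaip3.
Fos (chr12:85473640-85473889, plus strand): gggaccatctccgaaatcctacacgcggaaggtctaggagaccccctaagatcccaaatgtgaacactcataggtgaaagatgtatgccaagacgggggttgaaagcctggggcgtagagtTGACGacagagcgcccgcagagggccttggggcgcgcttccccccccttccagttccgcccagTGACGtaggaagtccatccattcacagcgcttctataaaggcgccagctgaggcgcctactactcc
Fosb (chr7:19310046-19310295, minus strand): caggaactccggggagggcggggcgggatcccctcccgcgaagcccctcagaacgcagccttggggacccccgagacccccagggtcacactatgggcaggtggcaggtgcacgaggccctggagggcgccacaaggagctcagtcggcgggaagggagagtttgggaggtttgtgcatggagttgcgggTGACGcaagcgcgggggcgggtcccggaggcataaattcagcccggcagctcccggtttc
Nr4a1 (chr15:101266596-101266845, plus strand): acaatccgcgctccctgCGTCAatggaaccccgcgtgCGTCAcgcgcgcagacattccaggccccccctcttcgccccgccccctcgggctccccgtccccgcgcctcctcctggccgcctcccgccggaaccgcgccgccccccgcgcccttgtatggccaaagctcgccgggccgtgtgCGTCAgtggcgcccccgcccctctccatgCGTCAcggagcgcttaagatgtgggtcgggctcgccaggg
Tnfaip3 (chr10:19015411-19015660, minus strand): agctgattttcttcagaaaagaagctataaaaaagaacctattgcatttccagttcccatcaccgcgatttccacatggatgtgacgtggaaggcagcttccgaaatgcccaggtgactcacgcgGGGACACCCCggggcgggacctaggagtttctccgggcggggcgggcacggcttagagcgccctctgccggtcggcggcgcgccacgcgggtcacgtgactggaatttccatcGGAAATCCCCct

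The half-site occurred 2 times in the Fos window, 1 time in Fosb and 4 times in Nr4a1. Of the 16 immediate early members with a window, 8 held it (50%), as did 17.8% of 27025 promoter windows of the same length. It was also in 6 of 14 windows of the NF-κB core list (42.9%), so it was not limited to the immediate early genes. The NF-κB consensus was in 8 of those 14 (57.1%), including 2 matches in Tnfaip3, and in 7.03% of all windows. It was also in 3 of 16 immediate early windows (18.8%), those of Fos, Fosb and Ier3. These matches are not marked in the Fos and Fosb sequences above. The CArG box was in 1 of 16 immediate early windows and 1.41% of all. The STAT palindrome TTCNNNGAA was in 1 of 16 immediate early windows, 0 of 5 STAT5 target windows and 7.14% of all. No window was available for Egr1 and Ier2 among immediate early genes, or for Nfkb1, Nfkbiz and Relb in the NF-κB core list. Among STAT5 targets, Socs2, Ccnd1 and Ccnd2 had none. Genes without a window were not searched for any of these motifs. A match describes the letters in the window only.

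Krüppel-like factors and cell-cycle inhibitors were lower as well. Of 7 KLF genes 6 had a ratio below 1 (median −0.56). Klf2, a quiescence and homing factor, was at 10.3 CPM in control, 47.1 in Ikk2CA, 24.4 in Jak2V617F and 8.57 in the double mutant. Klf4 was at 2.73, 16.7, 4.34 and 1.90 CPM and Klf6 at 33.6, 70.2, 53.4 and 25.3 CPM. All 3 were highest in Ikk2CA and lowest in the double mutant. Klf9 was the exception, at 12.0 CPM in Ikk2CA and 16.0 in the double mutant. Within marker-low cells Klf2 had a log2 ratio of −2.46 and Klf4 of −2.96.

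Of 6 compared cell-cycle inhibitors 5 were lower (median −0.51). Cdkn1a, the p53 target that encodes p21, was at 12.5, 42.6, 18.8 and 13.99 CPM (control, Ikk2CA, Jak2V617F, double mutant), a log2 ratio of −1.61 overall and −1.89 in marker-low cells. In stem-marked cells it was at 36.9 against 4.80 CPM and in B-marked cells at 47.5 against 40.8 CPM. Btg1, an antiproliferative gene, was at 114 against 54.8 CPM. Txnip, which blocks glucose uptake, went the other way, at 89.5 CPM in Ikk2CA and 133 in the double mutant, between Ikk2CA and the 244 CPM of control.

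Over all kept cells, most components of the NF-κB pathway were slightly lower in the double mutant. The 17 compared core genes (subunits, inhibitors and adaptors) had 14 ratios below 1 and a median of −0.27, and 2, Tnfaip3 and Nfkbiz, were at least 2-fold lower. In marker-low cells 16 of 17 were lower (median −0.35), and in stem-marked cells 18 of 19 (−0.56). The median was −0.33 in granulocyte-monocyte-marked, −0.21 in megakaryocyte-marked and −0.25 in B-marked cells. Tnfaip3, which encodes the deubiquitinase A20, was at 4.16 CPM in control, 19.5 in Ikk2CA, 4.99 in Jak2V617F and 7.07 in the double mutant. Nfkbiz, a nuclear cofactor, was at 9.82, 22.2, 16.6 and 10.1 CPM. In the double mutant Nfkbiz was near its control level, and Tnfaip3 lay between control and Ikk2CA. The ratios were 0.362 for Tnfaip3 and 0.457 for Nfkbiz. Nfkbia, the main IκB inhibitor, was at 325 CPM in Ikk2CA and 252 in the double mutant, and the subunit gene Relb at 34.9 and 28.9 CPM. These stayed far above their control levels of 69.9 and 6.31 CPM. Nfkb1 (86.5 and 82.1 CPM) and Rela (31.9 and 33.5 CPM) hardly differed.

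Among 11 compared NF-κB target genes the split was wider, with 8 below and 3 above a ratio of 1 (median −0.22, 3 at least 2-fold lower). Ccl4, a chemokine that attracts leukocytes, was at 42.0 CPM in control, 109 in Ikk2CA, 48.0 in Jak2V617F and 15.5 in the double mutant. Ccl3, its neighbour on chromosome 11, was at 36.8, 54.3, 30.4 and 9.20 CPM. Both were lower in the double mutant than in control. Cd69, an early activation antigen, was at 47.5, 155, 65.7 and 68.2 CPM. Other targets stayed high: Ltb, a lymphotoxin subunit, was at 355 and 304 CPM against 104 in control, and Ccl5 at 75.5 and 42.8 CPM against 8.98. Sod2, the mitochondrial superoxide dismutase, was at 106 and 129 CPM. In marker-low cells the target median was −0.48, with 11 of 12 below 0, and Ccl4 had a log2 ratio of −3.13.

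On the JAK-STAT side, Socs2 stood out among the targets. This STAT5-induced inhibitor of cytokine receptors (mm10 chr10:95385362-95417180) was at 8.89 CPM in control, 11.4 in Ikk2CA, 17.5 in Jak2V617F and 24.6 in the double mutant. Both libraries with the Jak2 allele were above both without it. The ratio was 2.17 (2.05 to 2.28), and 5.82% of Ikk2CA and 10.7% of double-mutant thinned cells had a UMI. In marker-low cells the ratio was 3.64 (3.36 to 3.94), from 7.41 to 26.9 CPM. B-marked Ikk2CA cells, by contrast, held Socs2 at 41.8 CPM. Within classes the log2 ratio was 1.99 in granulocyte-monocyte-marked, 1.78 in megakaryocyte-marked, 0.78 in stem-marked and 0.73 in B-marked cells. Socs2 was seen in 0.575% of erythroid-marked and 0.296% of granulocyte-monocyte-marked Ikk2CA cells, the lowest shares among the classes.

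Over all kept cells the other compared STAT5 targets did not, as a group, move with it. Of 8 compared, 3 were above and 5 below a ratio of 1 (median −0.14), and Socs2 alone was at least 2-fold higher. The kinase gene Pim1 was at 231 CPM in Ikk2CA and 248 in the double mutant, Ccnd2 at 142 and 160, Ccnd1 at 70.6 and 52.6, and the survival gene Mcl1 at 153 and 101 CPM. Cish and Socs3, further feedback genes, were under 10 CPM in both libraries. The 13 kinases, STATs and phosphatases of the pathway had 5 ratios above and 8 below 1, with a median of −0.08 and none past 2-fold. Of 20 cytokine receptors 2 were at least 2-fold lower: Il7r, the lymphoid interleukin-7 receptor, at 42.4 against 6.22 CPM, and Csf1r, the macrophage colony-stimulating factor receptor, at 17.7 against 6.497 CPM. In marker-low cells Il7r was at 22.4 against 4.90 CPM and Csf1r at 10.4 against 3.27 CPM.

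Of the 39 lists, that of B cell genes had the lowest median ratio. All 13 compared B cell genes were lower, 12 of them at least 2-fold, with a median log2 ratio of −3.96. Vpreb3, part of the surrogate light chain machinery of early B cells, was at 45.9 CPM in control, 263 in Ikk2CA, 9.32 in Jak2V617F and 12.4 in the double mutant. Cd79a, the signalling chain of the B cell receptor, was at 32.9, 187, 7.13 and 11.5 CPM, and Ebf1, a B cell specification factor, at 52.2, 273, 13.6 and 18.2 CPM. Ikk2CA was highest and the 2 libraries with the Jak2 allele were lowest for all 3. After thinning, 15.8% of Ikk2CA and 1.09% of double-mutant cells had a Vpreb3 UMI.

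Vpreb3, Cd79a and Ebf1 are among the markers that define B-marked cells, so their levels there are partly fixed by the choice of cells. In those cells Vpreb3 was detected in 88.04% of Ikk2CA and 86.5% of double-mutant cells, and the 5 list members that did not define the class had 2 ratios above and 3 below 1 (median −0.13). In marker-low cells 2 of the 13 genes passed 10 CPM, and both were lower (median −1.62). These were Ebf1, at 10.3 against 1.23 CPM (log2 ratio −3.07), and Cd79b, at 39.5 against 34.8 CPM (−0.18). The median thus lies between a large and a small difference. Vpreb3 was under 10 CPM there, at 4.38 against 0.245 CPM. Vpreb3 was also found in 3.78% of granulocyte-monocyte-marked Ikk2CA cells, a class that should lack it, and in 0 of 498 double-mutant cells of this class, which allows a share of up to 0.602%. The part of free RNA in these low shares was not tested.

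All 4 compared plasma cell genes were lower as well (median −2.87, and −1.62 in marker-low cells). Jchain, the joining chain of secreted antibodies (mm10 chr5:88519809-88527891), was at 167 CPM in control, 737 in Ikk2CA, 18.8 in Jak2V617F and 19.5 in the double mutant, a 37.8-fold lower level than in Ikk2CA. It was detected in 96.5% of plasma-marked and 6.07% of granulocyte-monocyte-marked Ikk2CA cells, and in 0.201% of the latter in the double mutant. In marker-low cells its log2 ratio was −2.51. Mzb1, an antibody-folding factor, was at 158 against 6.33 CPM, and in marker-low cells at 11.4 against 1.38 CPM. Prg2, the eosinophil major basic protein (mm10 chr2:84980461-84983632), was 72.3-fold lower, at 91.5 against 1.27 CPM. In Ikk2CA it was found in 81.8% of plasma-marked cells and in 0 of 174 erythroid-marked cells, which allows up to 1.72%, and 10 cells held 49.1% of its UMIs. In the double mutant 10 cells held 86.1% of Prg2 and 98.8% of Jchain UMIs.

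The lymphoid priming list had 10 of 11 members below a ratio of 1 (median −0.47), and this held in marker-low cells (9 of 10, median −0.56). Dntt, the polymerase that diversifies antigen receptors, was at 405 CPM in control, 342 in Ikk2CA, 179 in Jak2V617F and 129 in the double mutant. Il7r and Rag1 (10.2 against 0.893 CPM) were lower by more, and Flt3, the receptor of multipotent progenitors, by little (59.4 against 51.2 CPM). Cd27 was the member above 1 (101 against 135 CPM). All 8 compared plasmacytoid dendritic genes were lower (median −1.89). Ly6d, a lymphoid progenitor antigen, was at 25.8, 411, 11.5 and 23.5 CPM in the 4 libraries, and Irf8, a dendritic and monocyte factor, at 84.2, 229, 59.8 and 47.3 CPM. In marker-low cells Ly6d was at 254 against 22.2 CPM. Siglech, a plasmacytoid dendritic receptor, had a log2 ratio of −5.44 there but was under 10 CPM, at 5.14 against 0.118 CPM. Both genes are among the markers used to define that set of cells. Id3, which inhibits E proteins, was at 36.4 against 1.66 CPM and Id2 at 17.2 against 6.92 CPM, whereas the E protein genes Tcf3, Tcf4 and Tcf12 had log2 ratios between −0.40 and −0.26.

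Adult globins were lower in the double mutant than in Ikk2CA. Hbb-bs was at 12.4 CPM in control, 444 in Ikk2CA, 69.9 in Jak2V617F and 57.0 in the double mutant. Hba-a1 was at 7.14, 186, 22.3 and 25.4 CPM and Hba-a2 at 4.87, 141, 18.3 and 22.7 CPM. Hbb-bt differed less, at 140.3 CPM in Ikk2CA and 70.35 in the double mutant, with a log2 ratio of −0.50 in marker-low cells. The paralogous globin genes share sequence, so reads may be split between them. In Ikk2CA the 10 richest cells held 58.0% of Hbb-bs, 61.1% of Hba-a1 and 67.2% of Hba-a2 UMIs. In the double mutant the 10 richest cells held 89.0%, 93.7% and 90.9%, so the levels in both libraries rest on few barcodes. Hbb-bs was found at 8.15% to 10.2% in the granulocyte-monocyte-, B-, megakaryocyte- and stem-marked Ikk2CA cells and at 29.9% in erythroid-marked cells. In the double mutant the first 4 of these shares were 2.01%, 1.92%, 1.504% and 4.0%. In marker-low cells Hbb-bs was at 279 against 7.94 CPM.

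The whole erythroid list, globins included, had 8 of its 10 compared members below 1 (median −0.88), and 7 of 9 in marker-low cells (−0.62). The 6 that are not globins were divided, with 4 below and 2 above. Car1, a carbonic anhydrase of erythroid progenitors, was at 144 CPM in control, 90.4 in Ikk2CA, 54.3 in Jak2V617F and 16.1 in the double mutant, and in marker-low cells at 35.1 against 4.23 CPM. The 10 richest cells held 19.4% of Car1 UMIs in Ikk2CA and 84.8% in the double mutant. Blvrb, a biliverdin reductase, was at 62.98 against 36.97 CPM. Tfrc, the transferrin receptor, was at 42.4 against 29.0 CPM and Gata1, the erythroid-megakaryocyte master factor, at 12.3 against 8.09 CPM. Car2 (349 against 447 CPM) and Tal1 (20.6 against 28.3 CPM) were higher. The 7 haem synthesis genes were divided 3 above and 4 below.

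Monocyte genes were lower and primary granule genes were not. Of 11 monocyte genes 10 were below 1 and 8 at least 2-fold lower (median −1.51). Ly86, a Toll-like receptor cofactor, was at 20.2 CPM in control, 71.9 in Ikk2CA, 12.0 in Jak2V617F and 13.04 in the double mutant. Ctss, a lysosomal protease, was at 72.0 against 23.5 CPM, Cx3cr1, the fractalkine receptor, at 18.2 against 5.72 CPM and F13a1 at 29.7 against 8.60 CPM. Within granulocyte-monocyte-marked cells 8 of 9 non-defining members were lower (median −0.80), and in marker-low cells 8 of 9 (−1.67). In the latter Ly86 was at 49.1 against 6.23 CPM and Ctss at 49.97 against 24.3 CPM. Among primary granule genes 7 of 9 were above 1 (median 0.11), and 5 of 8 in marker-low cells (0.04). Ms4a3 was at 50.9 against 76.6 CPM and Ctsg at 484 against 524, while Mpo was at 682 against 566 CPM. Late neutrophil genes were divided 3 to 4 (median −0.04), and S100a8 was at 237 against 219 CPM, with 64.1% and 95.8% of its UMIs in 10 cells.

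The mast, eosinophil and basophil list had no common direction. The mast cell chymases Mcpt4 (1.34 against 12.0 CPM) and Cma1 (4.39 against 18.0 CPM) were among the highest ratios in the comparison, opposite to Prg2. In the double mutant 10 cells held 63.3% of Mcpt4 and 54.3% of Cma1 UMIs, and 0.234% and 0.312% of thinned cells had one. These 2 values therefore describe a small number of cells. Cpa3, a mast cell protease also present in early progenitors, was at 56.0 against 47.6 CPM.

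Stem cell genes were higher in the double mutant than in Ikk2CA, and all 13 compared were below control in both. All 13 compared members had a ratio above 1, against 54.7% of all genes compared, and 3 were at least 2-fold higher, against the 0.348% given above (median 0.50). Mecom, the EVI1 factor of long-term stem cells, was at 43.4 CPM in control, 14.5 in Ikk2CA, 50.8 in Jak2V617F and 32.5 in the double mutant. Mycn was at 35.9, 9.65, 33.1 and 21.5 CPM, and Hlf, a stem cell factor, at 221, 43.4, 198 and 74.5 CPM. The double mutant lay between Ikk2CA and control for each of them. Trim47 (5.35 against 11.2 CPM), Meis1 (76.8 against 106) and Angpt1 (89.7 against 127) followed. After thinning, 8.46% of Ikk2CA and 16.5% of double-mutant cells had a Mecom UMI, beside 0.296% of plasmacytoid-dendritic-marked Ikk2CA cells.

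The stem cell difference varied between classes of cells. In marker-low cells 11 of 13 members were above 1 and the median was 0.13. Mecom and Mycn kept log2 ratios of 0.71 and 0.77, whereas Procr was at −0.14. In stem-marked cells the 13 members that did not define the class had 5 ratios above and 8 below 1 (median −0.10). In granulocyte-monocyte-marked cells all 6 compared members were above 1 (median 0.51), and in megakaryocyte-marked cells 8 were above and 8 below. In stem-marked cells the class-defining genes Mecom (134 against 110.4 CPM) and Hlf (312 against 262 CPM) were slightly lower, a comparison the choice of cells partly fixes. The share of stem-marked cells was 4.30% in Ikk2CA and 7.81% in the double mutant, and its part in the pooled levels was not tested.

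Megakaryocyte genes were close to even, with 10 of 11 above 1 but a median of 0.20, and 5 of 9 above 1 in marker-low cells (0.04). The exception was Selp, the platelet adhesion receptor P-selectin at 10.3 CPM in control, 4.87 in Ikk2CA, 28.5 in Jak2V617F and 14.5 in the double mutant. Its ratio was 2.97 (2.75 to 3.21). It was higher with the Jak2 allele in both backgrounds. The log2 ratio was 1.08 in marker-low, 2.13 in granulocyte-monocyte-marked, 1.21 in megakaryocyte-marked and 0.41 in stem-marked cells. Pf4, a platelet chemokine, was at 444 and 509 CPM, far above the 99.3 of control in both. Serpina3g, a protease inhibitor of activated haematopoietic cells, was at 96.2, 141, 226 and 253 CPM in the 4 libraries and reached 62.0% of thinned double-mutant cells, against 42.8% in Ikk2CA.

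**Figure D3:**
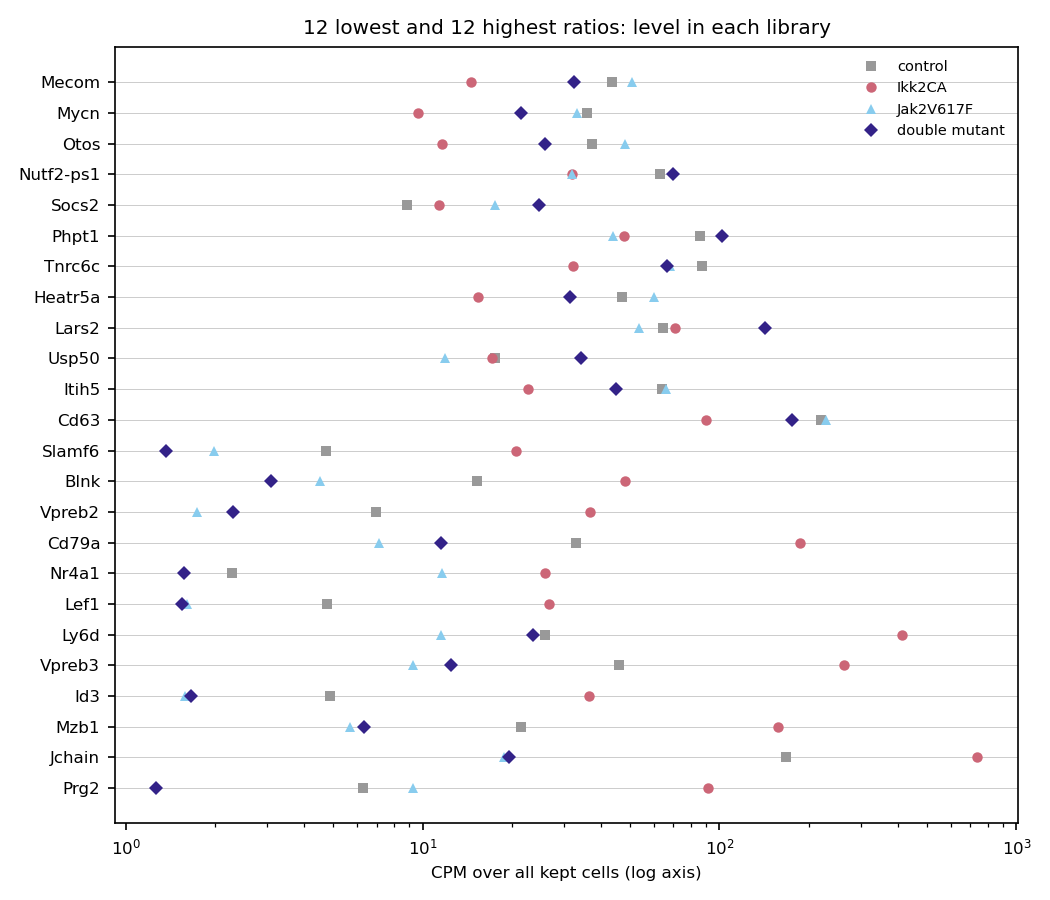
CPM over all kept cells in each of the 4 libraries (log axis) for the 12 lowest and 12 highest ratios among named candidates. Ikk2CA is the highest library for each of the 12 lowest genes; for Mecom, Mycn, Otos and Cd63 the double mutant lies between Ikk2CA and control.

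Antigen presentation and protein-folding genes were lower. All 8 compared MHC class II genes had ratios below 1 (median −0.65, and −0.73 in marker-low cells). Cd74, the invariant chain, was at 133 CPM in control, 593 in Ikk2CA, 112 in Jak2V617F and 225 in the double mutant, and H2-Aa at 82.4, 225, 99.7 and 120.0 CPM. In both genes the double mutant lay between control and Ikk2CA, while H2-Ob (39.0, 19.3, 26.0 and 11.6 CPM) was lowest in the double mutant. In stem-marked cells Cd74 was at 845 against 430.2 CPM and in B-marked cells at 606 against 147 CPM. MHC class I genes were divided 4 above and 6 below 1 (median −0.04). Interferon-stimulated genes were divided 6 to 8 (median −0.20), with Ifi27l2a at 122 against 34.2 CPM and Ifitm1, a membrane antiviral gene rich in stem cells, at 307 against 484 CPM.

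Of 15 compared genes of the unfolded protein response 14 were lower (median −0.57). Hspa5, the chaperone BiP, was at 263, 440.2, 234 and 258 CPM in control, Ikk2CA, Jak2V617F and the double mutant, and Xbp1, a factor of this response and of plasma cells, at 52.9, 80.9, 44.2 and 37.6 CPM. The double mutant was at or below the control level for both. In marker-low cells 13 of 15 were lower (median −0.29), and in stem-marked and granulocyte-monocyte-marked cells 11 of 15 each (−0.15 and −0.24). In B-marked cells 14 of 15 were lower (−0.81) and in megakaryocyte-marked cells 15 of 15 (−0.69). Heat-shock genes were divided 4 to 4.

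Genes of ribosome assembly and MYC activity were higher, most by little. All 20 had ratios above 1, with a median log2 ratio of 0.26, and Mycn, given above, was the member past 2-fold. Ncl, which encodes nucleolin, was at 1034 against 1383 CPM, Npm1 at 2009 against 2584, Cad, a pyrimidine synthesis enzyme, at 25.3 against 36.7 and Myc at 102 against 124 CPM. All 20 were also above 1 in marker-low cells (median 0.20), and 19 of 20 in stem-marked cells (0.28). Glycolysis genes were higher in 12 of 13 cases (median 0.25), led by Pkm (279.7 against 402 CPM) and Ldha (421 against 562), with Eno1 the exception (96.0 against 70.4 CPM). Nuclear genes of the respiratory chain were higher in 15 of 18 cases (median 0.10). For Ncl the interval of the ratio was 1.33 to 1.35, which excludes 1 for counting error but carries no replicate spread.

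Cell-cycle genes showed small shifts over all kept cells and larger ones in stem-marked cells. G2/M genes were lower in 17 of 18 cases (median −0.26), with Mki67 at 217 against 168 CPM. In marker-low cells the median was −0.05 and in stem-marked cells it was 0.47, with 16 of 17 higher. S-phase genes were divided 13 to 9 (median 0.07), but 21 of 22 were above 1 in marker-low cells (0.16) and 19 of 20 in stem-marked cells (0.55). Histone genes were lower in 20 of 25 cases over all kept cells (median −0.33). In marker-low cells 16 of 25 were lower (−0.10), and in stem-marked cells 11 of 18 were higher (0.16). Hist1h2ap was at 70.4 CPM in control, 693 in Ikk2CA, 265 in Jak2V617F and 157 in the double mutant, while Hist1h2ac (45.2 against 72.9 CPM) and Hist1h2an (40.04 against 60.6 CPM) were higher. Replication-dependent histone transcripts mostly lack a poly(A) tail and the genes are near-identical copies, so these values are uncertain.

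Several highly ranked genes belonged to no list. Phpt1, a histidine phosphatase, was at 85.9 CPM in control, 47.5 in Ikk2CA, 43.9 in Jak2V617F and 102 in the double mutant, and Nutf2-ps1 at 62.8, 31.8, 31.9 and 69.5 CPM. In both genes the single mutants were low and control and the double mutant high. Nutf2-ps1 is a pseudogene that may share reads with Nutf2. The Phpt1 log2 ratio was 0.97 in granulocyte-monocyte-marked, 1.01 in megakaryocyte-marked, 0.86 in stem-marked and 1.12 in B-marked cells. Lars2, a mitochondrial leucyl-tRNA synthetase, was at 64.4, 70.7, 53.5 and 142 CPM, so the double mutant stood above the other 3 libraries. Tnrc6c, a partner of Argonaute in miRNA silencing, was at 87.3, 32.0, 68.3 and 66.4 CPM. Cd63, a tetraspanin of late endosomes, was at 220.2, 90.0, 229 and 176 CPM. In marker-low cells Myl10, a myosin light chain, had a log2 ratio of 1.43, at 47.6 against 128 CPM.

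**Figure D4:**
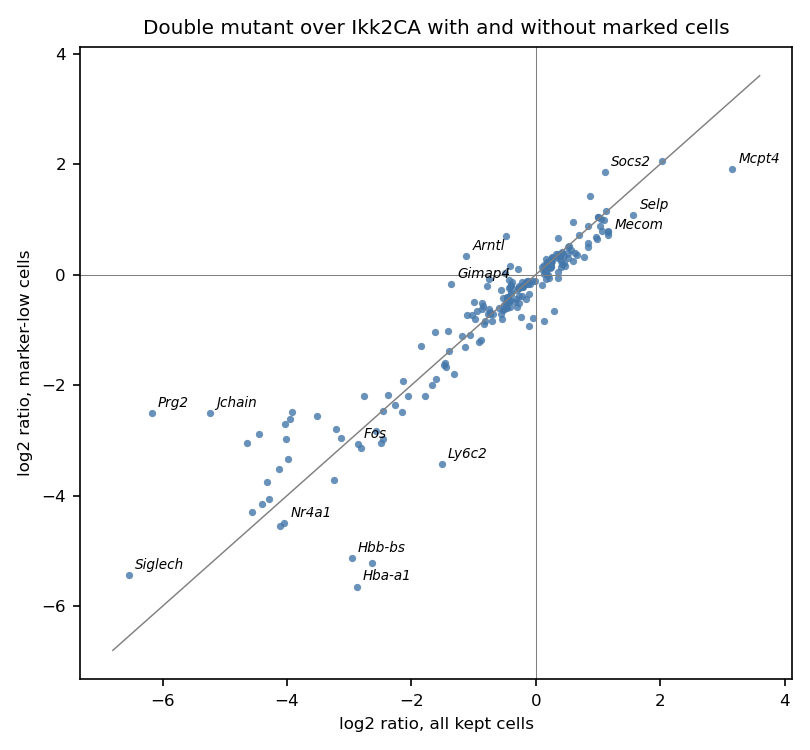
Log2 ratio, double mutant over Ikk2CA, of named genes over all kept cells (x axis) and over marker-low cells (y axis); the diagonal marks equal values. Prg2 and Jchain lie above the diagonal (−6.18 against −2.51 and −5.24 against −2.51), Hbb-bs and Hba-a1 lie below it, and Nr4a1 and Fos lie near it.

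The Jak2 allele was also added to the control background, in libraries that shared none of the samples above. There 25 of 8405 genes were at least 2-fold higher (0.297%) and 38 at least 2-fold lower (0.452%) in Jak2V617F than in control. Of the 160 genes at least 2-fold lower in the double mutant, 99 were compared in both backgrounds. Of these, 65 were also below 1 in Jak2V617F over control, where 50.9% of all genes were, and 21 were at least 2-fold lower, but 12 were at least 2-fold higher. Of the 27 higher genes 24 were compared in both, 16 were above 1 (49.1% of all genes were) and 3 at least 2-fold higher. The Jak2V617F pool was almost free of Xist-expressing cells while the control pool was not, so sex and genotype cannot be told apart there.

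By group, the B cell list was lower in both backgrounds (median −3.96 with Ikk2-CA and −1.80 without), as were the lymphoid priming (−0.47 and −0.40) and plasma cell lists (−2.87 and −1.08). Socs2 (log2 ratios 1.11 and 0.98), Selp (1.57 and 1.47) and Serpina3g (0.84 and 1.23) were higher in both. Immediate early genes were lower with Ikk2-CA (median −1.52, 0 of 18 above) and mostly higher without it (0.42, 14 of 18 above). The KLF list behaved alike (−0.56 and 0.58), as did, over all kept cells, histones (−0.33 and 0.70). The erythroid list also had medians of opposite sign (−0.88 and 0.45), but only its globins were all higher in Jak2V617F than in control. Its other compared members were divided there. Car1 (log2 ratio −1.40), Blvrb (−0.42) and Car2 (−0.39) were lower, and Tfrc (0.71), Tal1 (0.19) and Gata1 (0.08) were higher. Phpt1 (1.11 and −0.97) and Nutf2-ps1 (1.13 and −0.98) were higher with Ikk2-CA and lower without it. None of these differences between backgrounds was tested.

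**Figure D5:**
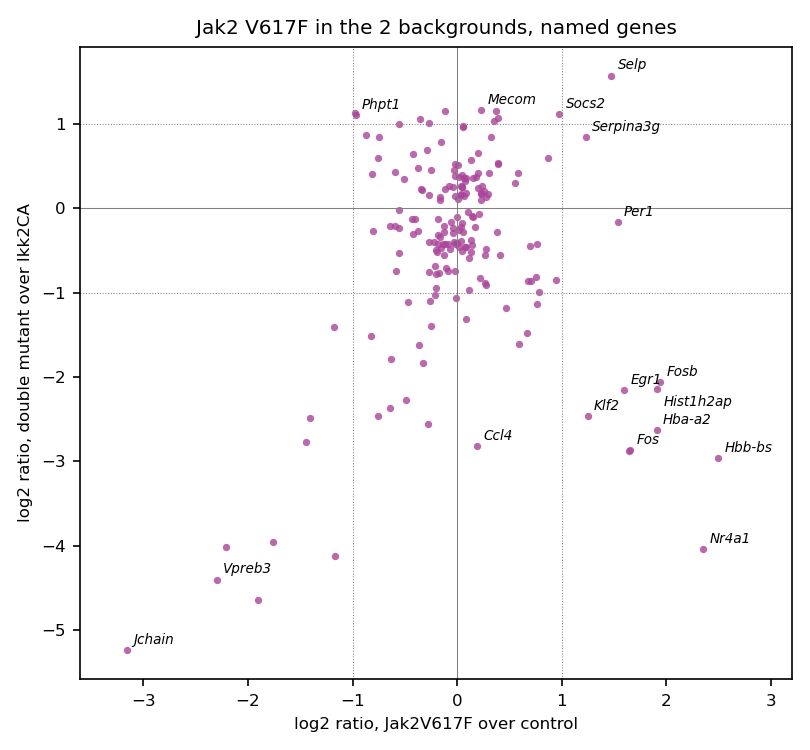
Log2 ratio of named genes in Jak2V617F over control (x axis) and in the double mutant over Ikk2CA (y axis), with dotted lines at 2-fold. Nr4a1, Fos, Fosb, Egr1, Klf2, Hbb-bs, Hba-a2 and Hist1h2ap lie at the lower right, past 2-fold in opposite directions, and Selp and Socs2 lie at the upper right.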

How the data were processed

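Single-cell RNA libraries of sorted LSK cells were deposited for 4 genotypes, 1 pool of 5 mice each; kept libraries held 102362297 to 197836491 UMIs. The authors' design text gives Cell Ranger 3.0.1 for read counting. The matrices themselves, per the file headers, carry Cell Ranger 4.0.0, and mm10 and Seurat 4.0.0 appear in the submitters' processing notes. Deposited matrices hold raw counts, that is whole UMIs for each gene and barcode, without normalisation. The barcode filter (500 to 7500 genes, under 10% mitochondrial UMIs) is that of the design text.

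UMIs were summed per gene over kept cells and scaled to CPM, and a ratio is the double mutant over Ikk2CA. Ratio intervals are exact conditional binomial and shares have Clopper-Pearson intervals, at 95%. Ratios, their intervals and thinning were checked on simulated data. Named genes were the 12 highest and 12 lowest ratios and, in marker-low cells, the 10 highest and 10 lowest, among genes reaching 20 CPM, plus up to 5 members of each list with the largest ratios among those reaching 10 CPM. The ranking skipped genes of mitochondria, ribosomal proteins, antigen receptors and sex chromosomes and those without a name. Other list members are printed to show a list's spread and were picked after their values were seen. Of 42 gene lists, 39 were summarised by counts and medians, and a list was called higher or lower at a median of at least 0.3 with at least 75% of members on that side. Members, lists and marker classes were chosen with earlier results of these data known. For alternative scalings only, factors came from DESeq2 1.42.0 and from edgeR 4.0.16, run in R 4.3.3, and no test was made with them. Other work used Python 3.11.15, numpy 2.4.6, scipy 1.17.1, pandas 2.3.3 and matplotlib 3.10.9. Coordinates are from GENCODE for GRCm38, the assembly behind mm10. Promoter windows are RefSeq, GRCm38.p6, the first start site along the gene. Immunoglobulin genes were counted among genes compared but not described. Alternatives changed the scaling, the CPM minimum, the barcodes or cells kept and the marker limit. Some genes are not reported here.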

Additional observations from a re-analysis of the deposited data

Results flagged for a closer look

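Named genes at least 2-fold apart in both backgrounds but in opposite directions are listed with the log2 ratio of the double mutant over Ikk2CA first and of Jak2V617F over control second. They were Nr4a1 (−4.04 and 2.35), Hbb-bs (−2.96 and 2.5), Hba-a1 (−2.88 and 1.64), Fos (−2.86 and 1.66), Hba-a2 (−2.63 and 1.91), Klf2 (−2.46 and 1.25), Egr1 (−2.15 and 1.6), Hist1h2ap (−2.14 and 1.91) and Fosb (−2.06 and 1.94). There is 1 library per genotype, and the difference between the backgrounds was not tested. The 4 immediate early genes and Klf2 were seen in many cells (Fos in 62.5% of thinned Ikk2CA cells), while 10 Ikk2CA cells held 58.0% of Hbb-bs, 61.1% of Hba-a1 and 67.2% of Hba-a2 UMIs. In the double mutant 10 cells held 89.0%, 93.7% and 90.9% of them.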

How the results depend on the processing

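No paired analysis was possible because each genotype had 1 library. The 27 higher and 160 lower genes became 5 and 59 with a minimum of 50 CPM, and 2126 and 2695 with no minimum, where genes of few UMIs enter. Marker-low cells gave 13 higher genes, and requiring under 2 markers of each class, an alternative chosen after seeing the data, gave 12 higher and 101 lower. TMM and median-of-ratios scaling, all barcodes, means over cells, cells with no Xist UMI, and leaving out multi-class cells, shared barcodes or the 5% deepest cells kept the counts between 23 and 31 and between 154 and 188. Of 68 named genes at least 2-fold apart, 68 kept their sign under every setting but the marker-low ones, where 67 and 66 did. Arntl, a clock gene (log2 ratio −1.11), was at 0.33 in marker-low cells and 0.24 with the 2-marker limit, and Gimap4 (−1.36) at 0.01 with the latter; the cause was not tested. In the same cells the B cell median was −1.62, over 2 compared genes, and −0.09. Pools of 5 mice with 1 library a side leave mouse-to-mouse and preparation differences unmeasured.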
